A study of Homo sapiens with 34 samples.

Results

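Day 9 CD43+ cells were compared with day 9 CD43- cells across all genes of the deposited expression table. The comparison used the 6 day 9 samples, 3 CD43+ and 3 CD43-, of 34 samples in the series. All 6 came from the established human embryonic stem cell line H1, which was differentiated as embryoid body-primed flat cultures in defined medium without added haematopoietic cytokines. Mesoderm formation was started with BMP4 and VEGF, of which VEGF alone was kept in the later medium. Both populations therefore came from cultures with the same treatment. Total RNA was sequenced from cells sorted on day 9 by CD43 and not by CD45, and the samples labelled CD43- are all live cells without CD43 rather than a defined lineage. The study describes the 3 replicates of a population as independent and gives 2 sequencing companies without saying which sample went where, so a company effect was not tested. Only 1 line was used.

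CD43, encoded by SPN, is a heavily glycosylated sialomucin of leukocytes, and in pluripotent stem cell cultures it appears early on cells committed to blood. The haematopoietic cells of such cultures are thought to arise from endothelium, which loses its endothelial programme as transcription factors such as RUNX1 and GATA1 take hold. Red cell, megakaryocyte and myeloid precursors come first, while the cells left behind include endothelium, mesenchyme, smooth muscle and epithelium.

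The deposited values are normalised tag counts, which the authors adjusted for the GC content of genes and made equal in distribution between samples. Ordered from low to high, every one of the 34 samples held the same set of values, with a sum of 17856940, a median of 197 and a highest value of 90700 that 10 genes shared in each sample. They therefore lie close to ranks, library depth is unknown, and errors come from the replicates alone. Each gene was tested on log2(value + 1) with limma, and a gene was called at a Benjamini-Hochberg adjusted p below 0.05 and a fold change above 4, that is a log2 fold change above 2 in size. Fold changes are on that log2(value + 1) scale throughout, understate the change of low genes, and compare CD43+ over CD43- cells. Tests covered 19788 of 20255 genes, those that reached 10 in 3 or more samples.

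The 2 populations differed at 4252 genes, 21.5% of those tested. In CD43+ cells 1711 genes were higher, 8.65% of those tested, and 2541 were lower, 12.8%. With a fold change above 2 the balance turned, with 4270 higher and 3969 lower. The adjusted p alone was passed by 12996 genes. For 42.2% of the genes tested all 3 CD43+ values lay above all 3 CD43- values, and for 28.7% all 3 lay below, so a gap between the groups was common in itself. The median log2 fold change over all genes was 0.24, and it was 0.04 when the values were first scaled by the median of ratios, which gave 1472 higher and 2764 lower genes. Across genes, log2 values of samples of the same population correlated at 0.972 to 0.985 and those of different populations at 0.795 to 0.832 (Pearson's r, as a description). Among 16324 protein-coding genes 1274 were higher and 2278 lower, whereas among the other 3464 genes, largely non-coding, 437 were higher and 263 lower.

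**Figure D1:**
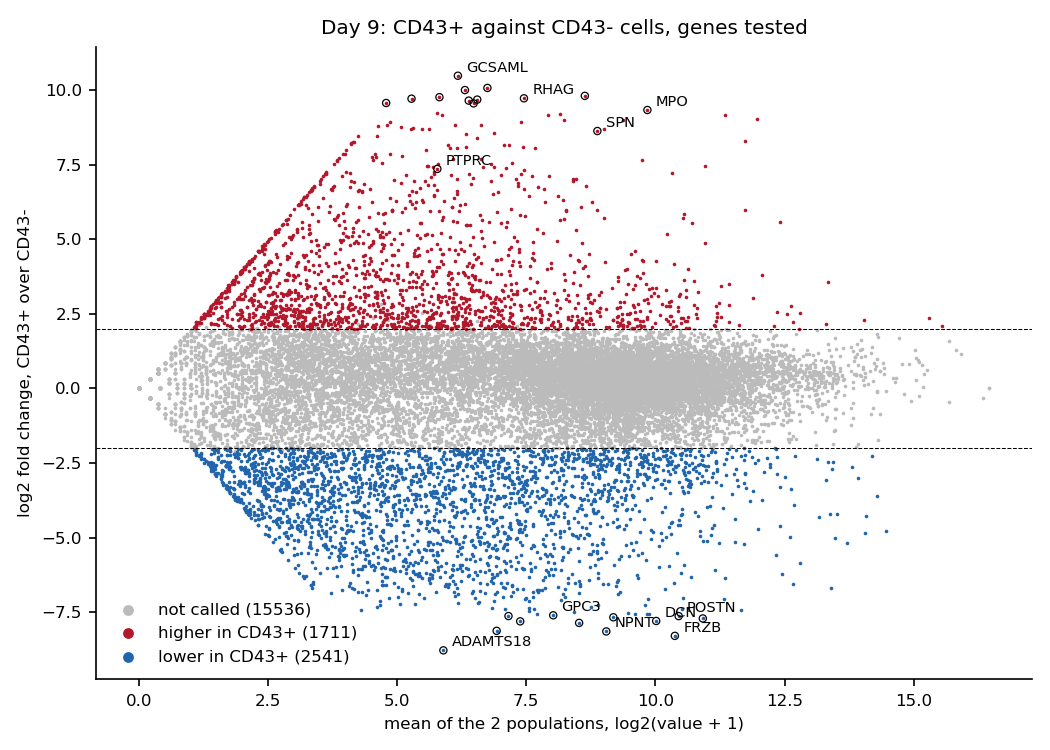
Log2 fold change of CD43+ over CD43- cells on day 9 (vertical axis) against the mean log2(value + 1) of the 2 populations (horizontal axis) for the 19788 genes tested. Red points are the 1711 genes called higher and blue points the 2541 called lower, and dashed lines mark a fold change of 4. Circles mark the sort markers SPN and PTPRC and the 12 largest rises and 12 largest falls among protein-coding genes ranked by the naming rule. Points on the slanted edges are genes at or near 0 in the other population.

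The sort was visible in the RNA. SPN (chr16:29662979-29670876, GRCh38) stood at 9460, 8946 and 9202 in the CD43+ samples and at 18, 32 and 19 in the CD43- samples, a log2 fold change of 8.63 (SE 0.37, adjusted p = 1.76e-16, limma). PTPRC (chr1:198638671-198757283), which encodes the CD45 phosphatase of leukocytes and was not used in the sort, stood at 749, 634 and 698 against 4, 2 and 4, a log2 fold change of 7.36 (SE 0.92, adjusted p = 9.4e-08). The 3 CD43+ values of each gene lay far above the 3 CD43- values. An exact two-sided permutation test gave p = 0.1 for both, the smallest value that 3 samples against 3 allow.

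Markers of the cell types that such cultures can hold divided along the sort. All 6 markers of blood cells, all 5 of megakaryocytes, 5 of 6 of erythroid cells, 4 of 5 of granulocytes and mast cells and 3 of 5 of macrophages were higher in CD43+ cells. The blood markers and their sum include SPN, the gene of the sort marker, whose difference the sort itself set. Summed over its markers, the blood cell level was 27123, 28610 and 26980 in the CD43+ samples and 760, 630 and 687 in the CD43- samples, with LCP1, an actin-bundling protein, the most abundant marker in both. All 6 mesenchymal markers, 4 of 6 endothelial, all 5 endodermal and 3 of 4 epithelial markers were lower in CD43+ cells. The summed mesenchymal level was 2739, 4934 and 17670 in CD43+ samples against 148202, 146714 and 195748 in CD43- samples, led in both by COL3A1, a fibrillar collagen. None of the blood, erythroid or megakaryocyte markers was at 0 in all CD43- samples, and none of the mesenchymal or endothelial markers was at 0 in all CD43+ samples. In such sorted bulk samples a smaller share of cells of a type and less RNA per cell cannot be told apart. Of the 4 markers of pluripotent cells none was called, and their summed level was 2041, 2271 and 2137 against 2639, 2136 and 2608, led by the RNA-binding protein LIN28A.

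**Figure D2:**
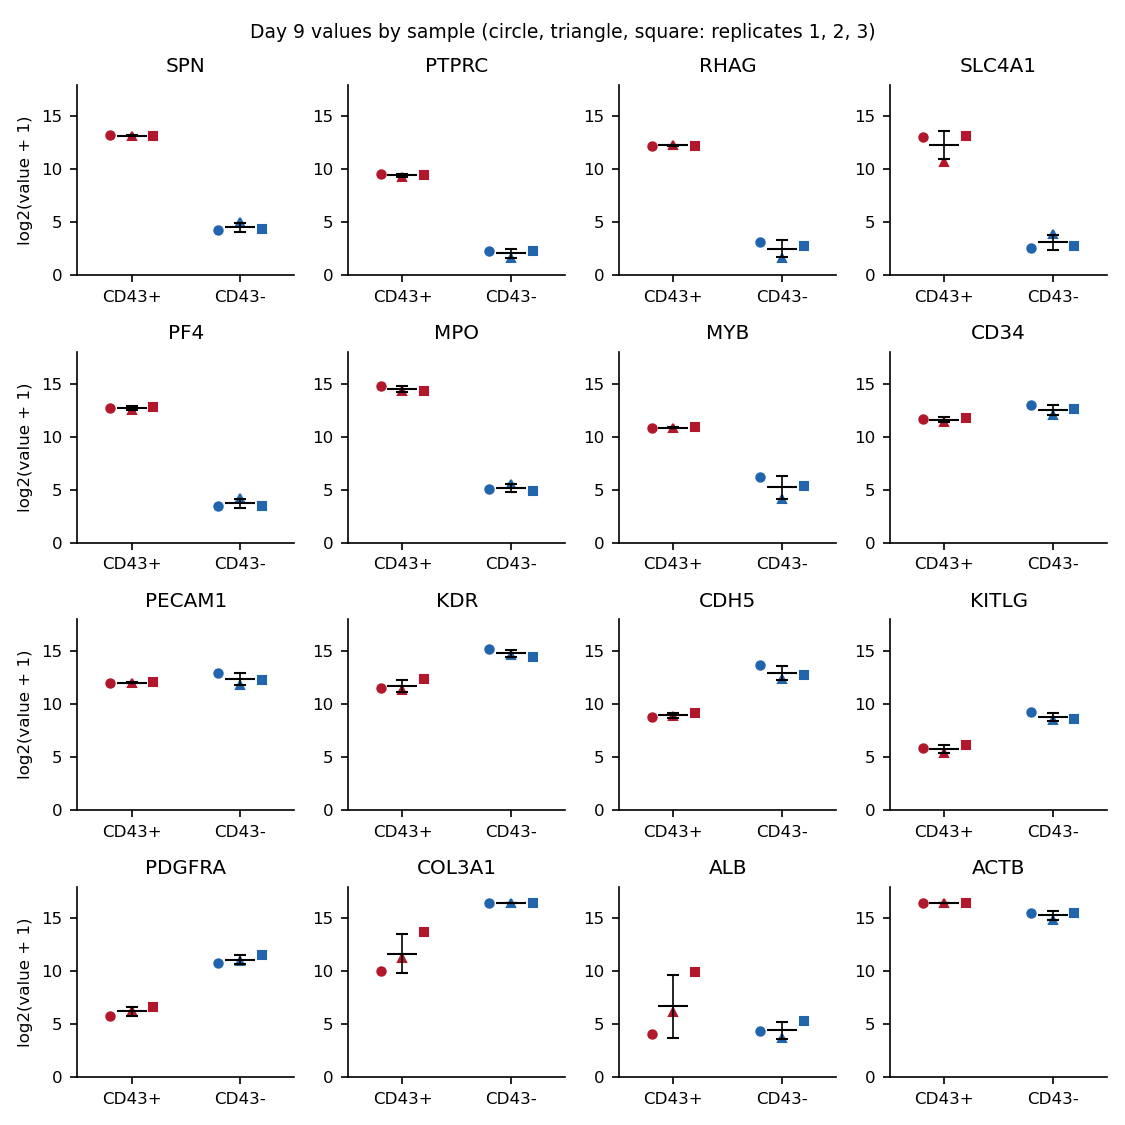
Log2(value + 1) of 16 genes in each day 9 sample, with CD43+ samples in red, CD43- samples in blue and replicates 1, 2 and 3 as circle, triangle and square. Horizontal lines give the mean and bars the SD of 3 samples. SPN, PTPRC, RHAG, SLC4A1, PF4, MPO and MYB lie higher in CD43+ samples, KDR, CDH5, KITLG, PDGFRA and COL3A1 lie lower, and CD34, PECAM1, ALB and ACTB were not called.

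Among the protein-coding genes that the naming rule ranked, the 12 largest rises had log2 fold changes of 9.33 to 10.48. GCSAML (chr1:247507058-247577690), named for its likeness to a signalling gene of germinal centres, stood at 2310, 2631 and 2892 in CD43+ samples against 1, 2 and 0. This was the largest rise among the genes so ranked (log2 fold change 10.48, SE 0.60, adjusted p = 4.63e-14, limma). NCF4, a cytosolic subunit of the phagocyte NADPH oxidase, stood at 1992, 2723 and 2387 against 3, 2 and 0 (adjusted p = 1.97e-09). PLEK, the major protein kinase C substrate of platelets, and MPO, the peroxidase of neutrophil granules, also rose, PLEK at 11186, 11498 and 12826 against 15, 12 and 10 and MPO at 29015, 20412 and 20412 against 32, 46 and 28. The 12 largest rises also included C11orf21, RHAG, PRTN3, HBD, GYPB, CD84 and LY6G6F, of which LY6G6F was listed at 0 in all CD43- samples and at 729, 709 and 845 in CD43+ samples. In none of the 12 did the groups overlap, which the naming rule required.

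In all, 728 genes were listed at 0 in every CD43- sample, 590 in every CD43+ sample and 220 in all 6. Of the 728, 29 had a mean of at least 100 in CD43+ cells, all protein-coding, and none is given a fold change of its own. LY6G6F is among them and was ranked with the largest rises by its difference on the log2(value + 1) scale. The 29 also included HEMGN, a nuclear protein of haematopoietic cells, at 794, 118 and 944, and the platelet chemokine gene PF4V1 at 323, 380 and 359. Of the 590, 5 had a mean of at least 100 in CD43- cells. HEMGN was named after its values were seen.

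Globin and red cell membrane genes were mostly higher in CD43+ cells, whereas fewer haem and iron genes passed the test. All 11 members of the globin list, which comprises the globin genes and the alpha globin chaperone AHSP, were higher in CD43+ cells, with a median log2 fold change of 8.29 against 0.24 over all genes tested. The embryonic genes reached the top of the value range in CD43+ cells. HBE1, the embryonic beta-type globin, was at the highest value of 90700 in all 3 CD43+ samples and at 238, 164 and 130 in CD43- samples (9.04, SE 0.67). HBZ, the embryonic alpha-type globin, was at 90700, 17338 and 90700 against 244, 144 and 131 (8.29, SE 0.85). The fetal gene HBG2 was at 90700, 48030 and 48030 against 152, 97 and 71, and the adult gene HBB at 42, 27 and 22 with 0 in every CD43- sample. Reads of the near-identical pairs HBA1 and HBA2, and HBG1 and HBG2, could be split either way by the counting, so the pairs are uncertain member by member.

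Of 20 red cell membrane and blood group genes 17 were higher, with a median of 5.24. SLC4A1, the anion exchanger band 3, stood at 8272, 1686 and 8797 in CD43+ samples against 5, 14 and 6 (9.18, SE 0.68), and RHAG, the Rh-associated glycoprotein, at 4710, 5032 and 4839 against 8, 2 and 6 (9.73, SE 0.64). EPB41 and GYPC missed the call at 1.81 and 0.91, both named after their values were seen. AQP1, a water channel of red cells that endothelium also makes, was the exception and fell, with 256, 305 and 386 against 11504, 17356 and 6364 (-5.12, SE 0.43).

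Of 16 haem biosynthesis genes 6 were higher and none lower, with a median of 1.60. ALAS2, the erythroid enzyme of the first step of haem synthesis, stood at 8671, 4234 and 7764 against 14, 12 and 6 (9.21, SE 0.51). The mitochondrial iron importer SLC25A37 rose by 3.51 (SE 0.14) and the final enzyme FECH by 2.42 (SE 0.17). ALAS1, the enzyme of the same first step in all tissues, was at 612, 708 and 722 against 546, 560 and 537 and was not called (0.31). Among 15 iron genes 4 were higher, against 8.65% of all genes tested. They were led by the transferrin receptors TFR2 (5.07, SE 0.45) and TFRC (2.55, SE 0.25), while the ferritin light chain FTL was not called at 0.60.

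Since most globin and red cell membrane genes were called higher, promoters were searched for the GATA motif AGATAA on both strands, its reverse complement being TTATCT, in the RefSeq windows of 300 bases (250 before to 50 after the gene start, GRCh38.p14). The motif was in 10.5% of all 27305 windows and in 6.22% of the 12952 that matched genes tested. It was in 117 of 942 windows of genes higher in CD43+ cells (12.4%), in 132 of 1665 of genes lower (7.93%) and in 556 of 10345 of genes not called (5.38%). The red cell membrane list held it in 8 of 14 windows, namely EPB42, GYPB, GYPE, ICAM4, KEL, RHCE, RHD and SPTB, where GYPB and GYPE, and RHCE and RHD, are close copies of each other. Among the other red cell lists, the haem list held it in 2 of 12 and the globin list in 1 of 2. The platelet list held it in 4 of 18, the leukocyte list in 2 of 22, the endothelial list in 3 of 29 and the matrix list in 2 of 31. A match of 6 letters describes the window and is not a bound site. The 150 bases before the start are shown for 3 red cell membrane genes and for ALAS2, whose windows hold the motif, and for RHAG, whose window does not, with the motif in capitals. These genes were chosen after the matches were seen.
EPB42, chr15:43221019-43221168, minus strand: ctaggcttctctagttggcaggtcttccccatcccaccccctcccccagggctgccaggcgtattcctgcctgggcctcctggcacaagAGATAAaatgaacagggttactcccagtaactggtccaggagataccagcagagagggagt
KEL, chr7:142962364-142962513, minus strand: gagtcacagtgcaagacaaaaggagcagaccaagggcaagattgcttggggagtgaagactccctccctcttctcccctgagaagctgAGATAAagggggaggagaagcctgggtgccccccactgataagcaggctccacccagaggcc
RHD, chr1:25272336-25272485, plus strand: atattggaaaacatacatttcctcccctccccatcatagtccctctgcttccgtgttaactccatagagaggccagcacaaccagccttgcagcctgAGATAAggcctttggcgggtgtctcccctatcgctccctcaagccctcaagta
ALAS2, chrX:55030978-55031127, minus strand: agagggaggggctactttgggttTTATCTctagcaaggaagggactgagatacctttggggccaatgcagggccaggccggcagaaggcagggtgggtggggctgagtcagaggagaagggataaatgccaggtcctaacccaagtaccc
RHAG, chr6:49636840-49636989, minus strand: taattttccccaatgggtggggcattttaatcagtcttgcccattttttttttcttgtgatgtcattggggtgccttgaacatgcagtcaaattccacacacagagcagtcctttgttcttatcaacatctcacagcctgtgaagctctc
The motif began 62 bases before the start in KEL, 53 in RHD and 127 in ALAS2, where it was read as TTATCT. The EPB42 window held 2 matches, of which the one 208 bases before the start lies outside the stretch shown. The ALAS2 window did not open at a transcript start of the GENCODE annotation used for the other coordinates, and the others did. Of the genes shown, EPB42 stood at 704, 207 and 598 against 3, 0 and 1 (7.80), KEL, which carries the Kell blood group, at 1576, 1192 and 1436 against 42, 146 and 38 (4.47), and RHD, which carries the Rh D antigen, at 280, 90 and 268 against 12, 20 and 6 (3.94). All 5 genes rose. Only the exact letters AGATAA or TTATCT were searched, so a window counted as without the motif may hold other GATA sequences. The RHAG stretch shown holds ttatca, which was not counted. Whether the motif bears on the rise was not tested.

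Most megakaryocyte and platelet genes were higher in CD43+ cells. Of 24 members 18 were higher and 1 lower, with a median of 4.96. ITGA2B, the platelet integrin alpha chain CD41, stood at 13319, 17356 and 15858 against 96, 138 and 83 (7.21, SE 0.45). The platelet chemokine PF4 was at 6818, 5906 and 7330 against 10, 17 and 10 (adjusted p = 1.83e-09), and RGS18, a regulator of platelet G-protein signalling, at 550, 562 and 628 against 0, 1 and 0 (8.85, SE 0.55). VWF, the von Willebrand factor, which endothelium also makes, was the member that fell, at 212, 202 and 300 against 2958, 1576 and 1817 (-3.12, SE 0.47). The thrombin and ADP receptors F2R, F2RL2 and P2RY1 overlapped between the groups and were not called, and these 3 were named after their values were seen.

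Granule and oxidase genes of myeloid cells rose in part. Of 24 neutrophil granule genes 15 were higher and none lower (median 3.23), and of 7 NADPH oxidase genes 5 were higher (median 4.81). PRTN3, the azurophil granule protease proteinase 3, stood at 697, 1677 and 1010 against 0, 0 and 1 (9.71, SE 1.27). PRG2, the eosinophil major basic protein, was at 1378, 3460 and 989 against 6, 0 and 6 (8.84, SE 1.35), and CLC, the Charcot-Leyden crystal protein of eosinophils and basophils, at 214, 404 and 142 with 0 in every CD43- sample. By contrast ELANE, the elastase of the same granules as PRTN3, stood at 2, 6 and 1 against 0, 0 and 0 and was not called, and the defensins DEFA1 and DEFA3 were at or near 0 in all 6 samples. With a pseudocount of 10 in place of 1, 11 neutrophil granule genes were higher, since several stood at low values.

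Of 27 monocyte and macrophage genes 18 were higher and 1 lower, with a median of 4.77 that was 2.19 with a pseudocount of 10, where 15 were higher. CSF1R, the receptor that macrophages need, stood at 2865, 2510 and 2399 against 36, 24 and 26 (6.47, SE 0.75), and the adaptor TYROBP at 654, 558 and 573 against 4, 6 and 1 (7.17, SE 0.93). The complement gene C1QC was at 204, 295 and 208 with 0 in every CD43- sample. The monocyte co-receptor CD14 stood at 1, 8 and 17 against 2, 6 and 12 and was not called (0.08). MRC1, the mannose receptor of macrophages and of some endothelium, fell, at 128, 256 and 103 against 1986, 557 and 1027 (-2.79, SE 0.71). Of 18 mast cell, basophil and eosinophil genes 12 were higher and none lower, with a median of 2.90. HDC, the histamine-making decarboxylase, stood at 1422, 1388 and 1004 against 2, 0 and 2 (9.24, SE 0.52), and the basophil and granulocyte precursor gene MS4A3 at 186, 151 and 219 with 0 in every CD43- sample. With a pseudocount of 10, 6 of these genes were higher.

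Lymphoid genes were mixed and mostly low. Of 21 tested, 12 were higher and 3 lower, with a median of 2.48, beside 8.65% higher and 12.8% lower over all genes tested. With a pseudocount of 10, 7 were higher and 2 lower, with a median of 0.91. With a minimum of 100 in 3 samples, 5 of 11 were higher and 3 lower, with a median of 1.15. NKG7, a granule protein of natural killer and T cells, stood at 290, 336 and 320 against 0, 0 and 2 (7.77, SE 1.04), and the T cell receptor chain gene CD3D at 174, 106 and 166 with 0 in every CD43- sample. ZAP70 (-2.27), NCAM1 (-3.09) and EBF1 (-4.86) fell, of which NCAM1 encodes the CD56 adhesion molecule and EBF1 a factor that B cells share with stroma.

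Genes of the leukocyte surface and of leukocyte signalling rose together. Of 30 tested 28 were higher and none lower, with a median of 4.74, and in all 30 the CD43+ values lay above the CD43- values. CD84, a receptor of the SLAM family, stood at 2200, 2082 and 2234 against 5, 0 and 3 (9.56, SE 0.63), ITGAL, the alpha chain of LFA-1, at 736, 946 and 1064 against 6, 1 and 5 (7.69, SE 0.91), and the tetraspanin CD53 at 621, 614 and 618 against 2, 2 and 4 (7.44, SE 0.70). The integrin list divided instead, with 8 of 22 members higher and 9 lower, against 8.65% and 12.8% of all genes tested. The other 5 were not called. ITGB2 (3.92), ITGA4 (3.29) and ITGB3 (7.64) were among those that rose, and ITGA8 (-6.71) and ITGB1 (-2.27) among those that fell.

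Of 30 haematopoietic transcription factors 20 were higher, 1 was lower and 9 were not called, with a median of 3.02. GATA1, the erythroid and megakaryocytic GATA factor, stood at 3858, 3487 and 3720 against 8, 6 and 6 (8.92, SE 0.62), and the erythroid factor KLF1 at 2612, 1828 and 2074 against 6, 8 and 2 (8.55, SE 0.44). SPI1, which encodes the myeloid factor PU.1, stood at 2095, 2194 and 2264 against 12, 6 and 4 (8.15, SE 0.90), so factors of the erythroid and of the myeloid lineage were both high in the same samples. MYB, a factor of definitive progenitors, was at 1821, 1837 and 1902 against 73, 16 and 40 (5.64, SE 0.53). RUNX1, the factor of the endothelial to haematopoietic transition, was present in CD43- cells as well, at 5186, 5549 and 5029 against 513, 392 and 374 (3.63, SE 0.30), as were GATA2 (2.80, SE 0.31), TAL1 (4.01, SE 0.42), LYL1 (2.89, SE 0.24) and LMO2 (2.08, SE 0.27).

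Among the 9 factors that missed the call, FLI1 stood at 2554, 2734 and 2616 against 2441, 947 and 1850 (0.70, SE 0.37, adjusted p = 0.0999) and MEIS1 at 2118, 2099 and 1954 against 1154, 1226 and 1658 (0.63, SE 0.38). ERG had a log2 fold change of -1.92 (SE 0.37) and did not reach the fold, and without CD43- replicate 2 it was called at -2.28. MECOM, a factor of stem cells and of arterial endothelium, was the member that fell, at 454, 244 and 482 against 6143, 1776 and 3228 (-3.12, SE 0.49). HLF, a factor of haematopoietic stem cells, was called higher from very low values, 14, 16 and 22 against 3, 6 and 0 (2.57, SE 0.89), and without CD43- replicate 3 it stood at 1.77 and was not called.

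Stem and progenitor surface genes did not move as a set, with 7 of 20 higher and 5 lower. Over all genes tested 8.65% were higher and 12.8% lower. The list median was 0.64. That median was 0.18 without CD43- replicate 2, 0.99 without CD43- replicate 1 and 0.33 with a pseudocount of 10. CD34, borne by progenitors and by endothelium, stood at 3324, 2636 and 3517 in CD43+ cells against 8083, 4194 and 6070, below them in every sample but short of the fold (-0.91, SE 0.34, adjusted p = 0.0204). CD33 (6.63), CD48 (6.87) and CD244 (6.04) rose, and PROM1 (CD133), at 6, 8 and 12 against 835, 1036 and 549, fell (-6.38, SE 0.36), as did THY1 (-4.48), TEK (-3.28) and PROCR (-2.68). ENG, the endoglin co-receptor, fell by 2.04 on the log2 scale, a call that was lost without CD43+ replicate 1 (-1.97), CD43- replicate 1 (-1.86) or CD43- replicate 3 (-1.87).

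Of 24 haematopoietic cytokine receptors 10 were higher and 2 lower, with a median of 0.91, beside 8.65% higher and 12.8% lower over all genes tested. The number lower was 1 without CD43+ replicate 2 or CD43- replicate 3, and 3 without CD43- replicate 2. No haematopoietic cytokine was added to the medium, and what the cultures made themselves was not measured in these files beyond RNA. KIT, the stem cell factor receptor, stood at 1991, 2064 and 3108 against 248, 152 and 230 (3.50, SE 0.37). IL2RG, the common gamma chain, was at 346, 343 and 332 against 2, 0 and 1 (7.55, SE 0.70), and CSF3R, the G-CSF receptor, at 1046, 930 and 791 against 54, 94 and 34 (4.01, SE 0.35). EPOR, the erythropoietin receptor, was above in every CD43+ sample, at 1387, 902 and 1183 against 568, 732 and 490, but did not reach the fold (0.95, SE 0.16). FLT3 was at 0 in all CD43+ samples and at 0, 4 and 2 in CD43- samples. LIFR, the leukaemia inhibitory factor receptor, showed the largest fall of the list, at 40, 47 and 76 against 9902, 17373 and 5914 (-7.56, SE 0.31).

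Ligands leaned the other way, with 5 of 27 higher and 11 lower, against 8.65% and 12.8% of all genes tested. Their median was -1.67. With a pseudocount of 10 the median was -0.52, with 5 higher and 10 lower. The ligands that rose were myeloid products or niche factors, namely IL1B (5.99), CXCL8 (4.62), IL18 (4.28), ANGPT1 (3.08) and IL16 (2.25, but 1.99 and not called without CD43- replicate 3). ANGPT1, a ligand of the endothelial receptor TEK, stood at 2848, 3262 and 3138 against 374, 304 and 417, while TEK stood at 508, 576 and 426 against 6912, 3716 and 4504, so ligand and receptor were high in opposite populations. The same held for stem cell factor, since KITLG was at 57, 40 and 69 in CD43+ cells against 589, 364 and 390 (-2.99, SE 0.38) while its receptor KIT was high there. CXCL12, a chemokine of stroma, was at 20, 8 and 62 against 946, 526 and 1327 (-5.25, SE 0.47), and BMP4 at 64, 75 and 66 against 2387, 2246 and 2033. IGF2, an insulin-like growth factor, fell by 4.98 on the log2 scale. EPO and THPO stood at 1, 0 and 2 against 4, 10 and 4 and at 14, 18 and 6 against 12, 16 and 22, and neither was called. KITLG, EPO and THPO were named after their values were seen.

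The 12 largest falls, ranked among protein-coding genes by the same rule, had log2 fold changes of -8.78 to -7.60. FRZB, a secreted WNT antagonist of cartilage and mesenchyme, stood at 34, 83 and 115 in CD43+ samples against 22842, 29026 and 15868 (-8.29, SE 0.40, adjusted p = 1.43e-15). DCN, the proteoglycan decorin, was at 30, 71 and 117 against 11508, 18772 and 13324 (-7.79, SE 0.43), and GPC3, a glypican of the fetal cell surface, at 8, 20 and 28 against 3450, 3646 and 3204 (-7.60, SE 0.32). POSTN, the matricellular periostin, stood at 63, 108 and 124 against 20424, 25870 and 12848, and DSP, the desmoplakin of epithelial and cardiac junctions, at 60, 137 and 200 against 20387, 48025 and 15836. ADAMTS18 (-8.78), NPNT (-8.14), SERPINE3 (-8.12), SEMA5A (-7.86), PARM1 (-7.81), MME (-7.67) and EGFL6 (-7.63) completed the 12. NPNT, the integrin ligand nephronectin, varied most among them in CD43- cells, at 2664, 37190 and 1566. In each of FRZB, DCN, GPC3 and POSTN, CD43+ replicate 1 held the lowest and replicate 3 the highest CD43+ value.

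Of 23 collagen genes 19 were lower and none higher, with a median of -5.19. COL3A1 was at the highest value of 90700 in all CD43- samples and at 1076, 2478 and 13324 in CD43+ samples (-4.79, SE 0.69). COL5A2 stood at 112, 158 and 574 against 37186 in each CD43- sample (-7.42, SE 0.37), and COL11A1 at 88, 117 and 188 against 13324, 14016 and 22842 (-7.01, SE 0.31). COL2A1, at 4783, 6697 and 5783 against 3895, 3034 and 4508, was not called, nor was COL18A1 of basement membranes, and this pair was named after its values were seen. Of 41 matrix glycoprotein and proteoglycan genes 31 were lower and 1 was higher, with a median of -4.62. FN1, fibronectin, stood at 424, 540 and 2938 against 90700 in each CD43- sample (-6.69, SE 0.43). THBS1, thrombospondin 1, which platelets store, was the member that rose, from 29004, 8966 and 37170 to 90700 in all CD43+ samples (2.09, SE 0.44), but without CD43- replicate 2 the log2 fold change was 1.47 and the call was lost. Because 90700 is the highest value of the table, differences that reach it are limited from above.

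Of 35 mesenchymal transcription factors 27 were lower and 2 higher, with a median of -4.25. SNAI2, a factor of epithelial to mesenchymal transition, stood at 4, 14 and 30 against 1749, 3276 and 2743 (-7.56, SE 0.51), PRRX1 of limb and mesenchyme at 10, 6 and 28 against 2352, 732 and 3016 (-7.05, SE 0.61) and HAND2 of heart and lateral mesoderm at 13, 10 and 82 against 1817, 2745 and 3062 (-6.73, SE 0.50). MEF2C, a muscle factor that megakaryocytes also use, rose, at 7635, 8682 and 7635 against 869, 816 and 577 (3.42, SE 0.31), and so did WT1, a factor of mesothelium and kidney, from 3, 13 and 6 to 94, 110 and 75 (3.67, SE 0.61). Of 23 smooth muscle and pericyte genes 15 were lower and 1 higher (median -2.83), with smooth muscle actin ACTA2 at 42, 52 and 102 against 4148, 3890 and 9230 (-6.43, SE 0.51). MYLK, the myosin light chain kinase of smooth muscle and platelets, was the member that rose (2.35, SE 0.44). Of 20 cardiac muscle genes 12 were lower (median -3.58), among them ACTC1 (-6.25) and NPPB (-7.12). TNNI3, the cardiac troponin I, rose from 2, 12 and 2 to 466, 420 and 409 (6.46, SE 0.51), and the atrial and embryonic light chain MYL4 by 2.27, which without CD43- replicate 3 was 1.76 and not called.

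Endothelial genes fell in part, with junction and VEGF receptor genes among those that fell. Of 45 tested 27 were lower, 1 was higher and 17 were not called, with a median of -2.72. CDH5, the VE-cadherin of endothelial junctions, stood at 440, 457 and 584 against 12854, 5198 and 7038 (-3.99, SE 0.37), and KDR, the main VEGF receptor, at 2974, 2484 and 5188 against 37166, 25836 and 22812 (-3.05, SE 0.36). FLT1, another VEGF receptor, fell by 5.16 (SE 0.33) and the arterial Notch ligand DLL4 by 5.70 (SE 0.50), from 5130, 3322 and 3819 to 36, 67 and 182. The groups overlapped for PECAM1 (CD31), at 4078, 4116 and 4329 against 7776, 3542 and 4900 (-0.30, SE 0.34, adjusted p = 0.457, 95% interval -1.0 to 0.41). TIE1 (-0.72), ESAM (-1.13) and ICAM2 (1.24) were not called either, and the early endothelial and blood factor ETV2 stood at 77, 170 and 138 against 46, 70 and 84 (0.90). TAL1 is on this list as well as among the haematopoietic factors and was its member that rose.

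In the signalling lists the called genes were mostly lower in CD43+ cells, and a large share of each list was not called. Of 36 BMP, TGF-beta and activin genes 21 were lower and none higher (median -2.60), led by the TGF-beta co-receptor TGFBR3, at 24, 82 and 64 against 4600, 7622 and 3183 (-6.55, SE 0.34). Of 40 WNT genes 21 were lower and 1 higher (median -2.27). RSPO2, an enhancer of WNT signalling, fell by 7.14 (SE 0.44), and the receptor ROR1 fell by 7.03 (SE 0.56), while the secreted antagonist SFRP5 rose, at 328, 288 and 294 against 20, 25 and 20 (3.75, SE 0.50). Of 21 Notch genes 11 were lower and 1 higher (median -2.08), the latter MFNG, a glycosyltransferase that modifies Notch receptors, at 2326, 2450 and 2733 against 382, 346 and 300 (2.87, SE 0.29). The receptor NOTCH2 fell by 2.08, but without CD43- replicate 2 it was at -1.98 and not called. Of 15 VEGF and PDGF genes 10 were lower and none higher (median -2.98), among them VEGFC (-6.02) and PDGFRA (-4.88).

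Genes of positional identity and cell contact were also low. Of 19 HOXA and HOXB genes 14 were lower and none higher, with a median of -2.73, and 8 were lower with a pseudocount of 10. HOXA10 stood at 2, 0 and 6 against 459, 218 and 690 (-7.22, SE 0.72) and HOXA9, a factor of definitive stem cells, at 1, 0 and 8 against 128, 67 and 200 (-5.53, SE 0.75). Of 28 axon guidance genes 21 were lower and none higher (median -4.47), with SLIT2, a repulsive guidance ligand, at 34, 62 and 105 against 9499, 17368 and 9726 (-7.57, SE 0.33). Of 20 cadherins and protocadherins 17 were lower and 1 higher (median -5.25), the latter CDH6, at 136, 130 and 177 against 12, 6 and 6 (4.10, SE 0.58). CDH1, the epithelial E-cadherin, was at 17, 42 and 54 against 3377, 5641 and 1866 (-6.56, SE 0.40).

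Endoderm and trophoblast genes were lower in part, and neural genes were mixed. Of 29 endoderm and liver-type genes 17 were lower and 1 higher (median -2.48), with AFP, alpha-fetoprotein, at 8, 3 and 6 against 1228, 347 and 116 (-5.87, SE 0.65). TF, the transferrin gene, was the member called higher, at 305, 65 and 426 against 104, 30 and 30 (2.14, SE 0.65), with overlapping groups, and the call was lost without CD43+ replicate 1, CD43+ replicate 3, CD43- replicate 2 or CD43- replicate 3, at 1.61 to 1.85. With a pseudocount of 10, 10 endoderm and liver-type genes were lower. Of 13 trophoblast and amnion genes 8 were lower and none higher (median -3.55), with the surface inhibitor VTCN1 at 2, 0 and 1 against 280, 236 and 364 (-7.32, SE 0.40). Of 19 neural genes 6 were lower, 3 higher and 10 not called (median -0.38), beside 12.8% lower and 8.65% higher over all genes tested. The neural median was -0.12 without CD43- replicate 1 and -0.79 without CD43- replicate 3. STMN2, a tubulin-binding protein of neurons, stood at 5, 16 and 12 against 1210, 6592 and 897 (-7.46, SE 0.64), while OLIG2, an oligodendrocyte factor, was at 66, 68 and 87 against 2, 0 and 4 (4.91, SE 0.58).

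Of 23 pluripotency genes 4 were higher, 3 lower and 16 not called, with a median of -0.38, beside 8.65% higher and 12.8% lower over all genes tested. The list median was -0.14 without CD43- replicate 1 and -0.55 without CD43+ replicate 3. TERT, the telomerase reverse transcriptase, stood at 566, 532 and 506 against 10, 4 and 8 (6.08, SE 0.62), and DNMT3B, a de novo DNA methyltransferase, at 4511, 3576 and 4481 against 774, 676 and 751 (2.51, SE 0.21). LEFTY1 (4.83) and USP44 (3.88) also rose. The core factor POU5F1 was at 70, 50 and 83 against 267, 63 and 251 and NANOG at 4, 4 and 4 against 25, 8 and 12, and neither was called. L1TD1, UTF1 and PRDM14 fell, the last pair from values below 20.

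DNA replication and mitosis genes lay higher in CD43+ cells in every member, by 0.61 to 2.48 on the log2 scale, mostly short of the fold. Of 42 DNA replication and mitosis genes 5 were higher, beside 8.65% of all genes tested, and none was lower, the median was 1.55, and in all 42 the CD43+ values lay above the CD43- values, against 42.2% of all genes tested. The number higher was 3 without CD43- replicate 2, 10 without CD43- replicate 3 and 3 under median-of-ratios scaling. CCNA2, the S and G2 phase cyclin, stood at 3210, 3262 and 3350 against 668, 475 and 970 (2.28, SE 0.33), BUB1, a mitotic checkpoint kinase, at 2388, 2680 and 2488 against 428, 318 and 674 (2.48, SE 0.42) and MCM7, a subunit of the replicative helicase, at 9860, 9460 and 9693 against 3802, 2618 and 4354, short of the fold (1.46, SE 0.18). MCM5 was called at 2.14, but without CD43- replicate 2 it was at 1.97 and not called. Of 17 cell cycle inhibitor and cyclin genes 4 were higher and 2 lower, with a median of 0.58. Over all genes tested 8.65% were higher and 12.8% lower. The D cyclins divided, with CCND3 higher, at 6008, 5704 and 6366 against 758, 1034 and 896 (2.76, SE 0.17), and CCND1 lower, at 352, 316 and 374 against 3059, 2460 and 3396 (-3.08, SE 0.28). CCNE2, a cyclin of entry into S phase, rose by 2.58, and CDKN2B, an inhibitor of cyclin D kinases, fell by 3.86 (SE 0.56).

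No member of 34 ribosomal protein genes or of 34 oxidative phosphorylation genes was called, with medians of 0.53 and 0.83 that were 0.32 and 0.62 under median-of-ratios scaling. ATP5B, a subunit of ATP synthase, stood at 20400 in each CD43+ sample against 7903, 7626 and 8497 (1.35, SE 0.08). Of 21 glycolysis genes 2 were higher, beside 8.65% of all genes tested, and 1 was lower, and the number higher was 1 without CD43+ replicate 2, CD43+ replicate 3, CD43- replicate 1 or CD43- replicate 3. PKLR, the pyruvate kinase of liver and red cells, stood at 1983, 1044 and 1520 against 6, 2 and 2 (8.53, SE 0.42). The glucose transporter SLC2A1 was at 5979, 3386 and 5458 against 20338, 90700 and 14638 (-2.64, SE 0.42), and without CD43- replicate 2 it was -1.85 and not called.

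Most immune response genes were not called. Of 27 interferon-stimulated genes 6 were higher and 2 lower (median 0.94), of 24 acute inflammatory genes 8 were higher and 3 lower (median 1.06) and of 22 antigen presentation genes 6 were higher and 1 lower (median 0.56), beside 8.65% higher and 12.8% lower over all genes tested. Without CD43- replicate 3 only 3 interferon-stimulated genes were higher, and with a pseudocount of 10 the numbers higher were 3 for this list and 3 for antigen presentation. Only 1 interferon-stimulated gene was lower without CD43+ replicate 2, CD43- replicate 1 or CD43- replicate 2. MX2, an antiviral GTPase, stood at 232, 200 and 221 against 30, 24 and 40 (2.78, SE 0.22), and IL1B, the interleukin 1 beta cytokine, at 242, 247 and 178 against 6, 1 and 2 (5.99, SE 0.91). TNFAIP3, an inhibitor of NF-kappaB signalling, fell, at 440, 344 and 368 against 2475, 3717 and 2000 (-2.79, SE 0.32). B2M, the light chain of MHC class I, was at 4368, 4775 and 4186 against 2892, 3603 and 3276 and was not called (0.45). The class II gene HLA-DRA was at 12, 16 and 10 with 0 in every CD43- sample.

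The 3 CD43+ samples were not alike in every list. For each list the mean log2 value of a sample was set against the mean of its population. CD43+ replicate 3 was 0.67 above for collagens, 0.45 for matrix genes, 0.58 for cadherins and 1.24 for endoderm and liver-type genes, and replicate 1 was 0.56 below for collagens. The liver gene ALB, named after its values were seen, stood at 16, 70 and 984 in CD43+ samples against 20, 12 and 38 (2.27, SE 1.11, not called). CD43+ replicate 2 was 0.40 below for globins, 0.43 below for red cell membrane genes and 0.30 below for haem genes, and 0.38 above for neutrophil granule genes, a pattern that SLC4A1, HBZ, PRTN3, PRG2 and CLC showed but RHAG, highest in replicate 2, and MPO, at the same value in replicates 2 and 3 and higher in replicate 1, did not. Among the CD43- samples, replicate 2 was 0.37 below for endothelial genes and 0.41 below for DNA replication genes, and replicate 1 was 0.90 above for endoderm genes. Whether these shifts reflect the cells sorted or the libraries was not tested. Leaving out each sample in turn gave 4206 to 4351 called genes.

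**Figure D3:**
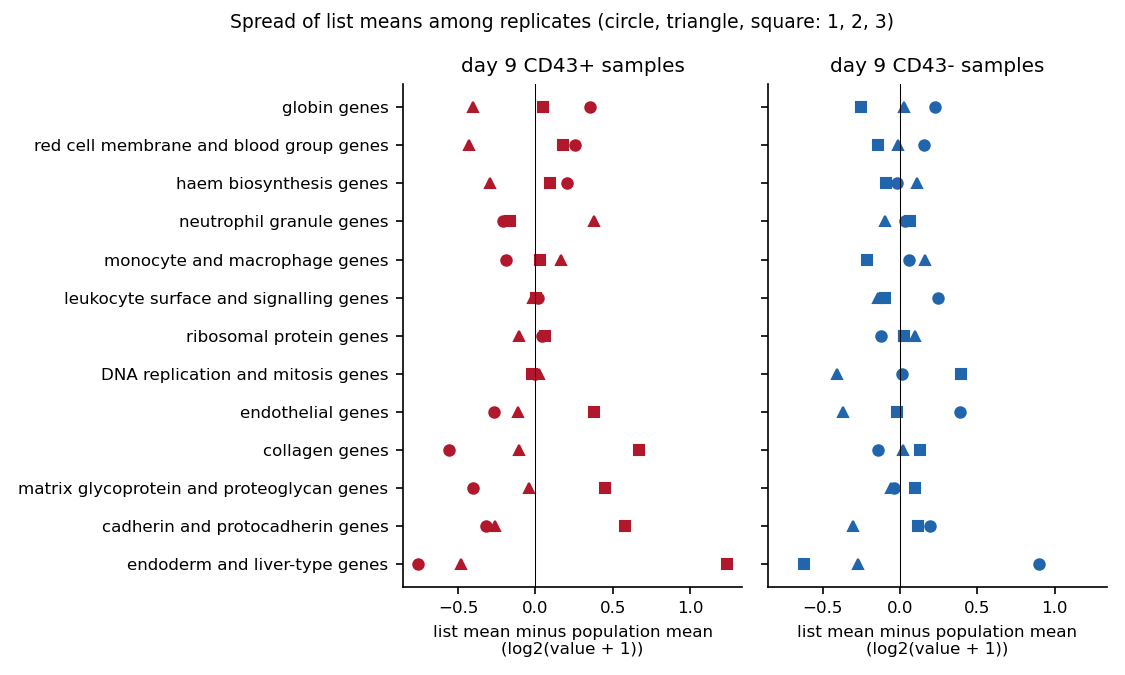
Mean log2(value + 1) of 13 gene lists in each day 9 sample, minus the mean of the 3 samples of its population, for CD43+ (left) and CD43- (right) samples, with replicates 1, 2 and 3 as circle, triangle and square. CD43+ replicate 3 lies to the right for collagen, matrix, cadherin and endoderm genes, and CD43+ replicate 2 lies to the left for the red cell lists and to the right for neutrophil granule genes.

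Day 9 lies between the other sorts on days 6 and 12, and the change of the CD43 difference between days was tested in the same fit. These tests share the day 9 samples, so they are given side by side. From day 6 to day 9 the difference became more positive at 635 genes, 3.21% of those tested, and more negative at 828, 4.18%. From day 9 to day 12 it became more positive at 912 genes, 4.61%, and more negative at 869, 4.39%. Day 12 CD43- replicates 2 and 3 held blood genes that replicate 1 did not, with PTPRC at 4, 197 and 371 and PRTN3 at 0, 22 and 1172, and leaving out either one gave 1753 and 1867 called genes against 1781. Leaving out both, a setting chosen after the data were seen that sets a lone day 12 CD43- sample against the others on the assumption that it varies as they do, gave 1974 called genes, and the changes of PTPRC (3.50), PRTN3 (5.23) and RNASE2 (4.66) were then called. Without day 12 CD43- replicate 1 the count was 1907, and PTPRC and IRF8 were then called as less different on day 12 than on day 9.

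PTPRC was not yet high on day 6, at 8, 1 and 0 in CD43+ cells against 0, 0 and 2, whereas SPN already was, at 8780, 6791 and 5979 against 28, 19 and 49. The change of the PTPRC difference from day 6 to day 9 was 6.50 on the log2 scale, and by day 12 PTPRC stood at 12848, 8975 and 6920 in CD43+ cells. IRF8, a factor of monocytes and dendritic cells, was at 0 in all day 6 CD43+ samples and at 10, 34 and 6 in CD43- samples, and on day 9 at 1179, 1368 and 1333 against 32, 19 and 46. PRTN3 went from 0, 0 and 2 on day 6 to 697, 1677 and 1010 on day 9 in CD43+ cells, and RNASE2, an eosinophil ribonuclease, from 0 in each sample to 198, 186 and 212. In CD43+ cells the mesenchymal cadherin CDH11 went from 2743, 3108 and 6460 on day 6 to 20, 37 and 119 on day 9, and the pericyte regulator RGS5 from 4295, 6922 and 7165 to 24, 20 and 41. In CD43- cells CDH11 went from 4710, 7766 and 7152 to 8793, 6912 and 9886, and RGS5 from 5254, 4332 and 3945 to lower values of 2362, 1754 and 1645 that remained above those of CD43+ cells.

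Many stromal, endothelial and leukocyte genes changed from day 6 to day 9. The difference became more negative for 17 of 45 endothelial, 16 of 41 matrix, 10 of 23 collagen, 12 of 20 cadherin and 11 of 35 mesenchymal factor genes, against 4.18% of all genes tested. It became more positive for 14 of 30 leukocyte, 10 of 24 platelet, 10 of 27 monocyte and 9 of 24 neutrophil granule genes, and for 4 of 20 red cell membrane and 2 of 11 globin genes, against 3.21% of all genes tested. KLF1 and CEBPE were among the 7 of 30 haematopoietic factors that changed in this direction. KLF1 did so with lower CD43+ values, 3108, 2804 and 2530 on day 6 and 2612, 1828 and 2074 on day 9, while its CD43- values went from 20, 34 and 44 to 6, 8 and 2. The KLF1 change of 2.10 was not called without day 6 CD43- replicate 3 (1.86), day 9 CD43- replicate 3 (1.63) or day 9 CD43+ replicate 1 (1.96). From day 9 to day 12 the difference became more negative for 13 of 20 red cell membrane and 4 of 11 globin genes, against 4.39% of all genes tested, and more positive for 13 of 24 neutrophil granule and 9 of 27 monocyte genes, against 4.61%. With day 12 CD43- replicates 2 and 3 left out these counts were 9, 4, 19 and 20. KLF1 went from 2612, 1828 and 2074 in day 9 CD43+ cells to 114, 216 and 218 on day 12, and from 6, 8 and 2 to 0 in each CD43- sample, and the change of its difference was not called. The difference of 10 of 29 endoderm and liver-type genes became more negative by day 12, and of 6 with those samples left out.

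**Figure D4:**
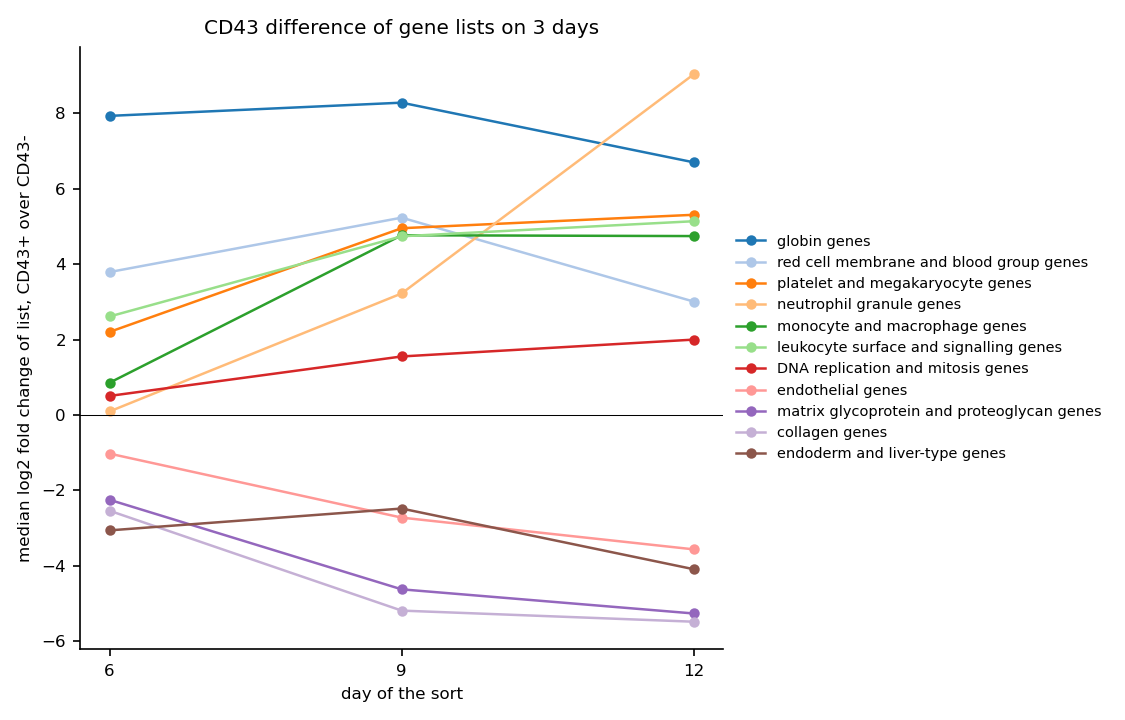
Median log2 fold change of CD43+ over CD43- cells (vertical axis) for 11 gene lists at the sorts on days 6, 9 and 12 (horizontal axis). Each line joins the medians of 1 list, from separate samples on each day. The neutrophil granule list runs from 0.10 through 3.23 to 9.04, the globin list from 7.94 through 8.29 to 6.70, and the endothelial list from -1.02 through -2.72 to -3.56.

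The defensins DEFA1, DEFA1B and DEFA3, granule peptides of neutrophils, were at 0 to 2 in every day 9 sample and reached 4112, 2788 and 3682 for DEFA1 in day 12 CD43+ cells. They are near-identical copies, so which of them was read is uncertain. RELN, the secreted glycoprotein reelin, was high in both day 9 populations with overlapping values, at 48056, 6589 and 10084 against 2302, 12848 and 3138 (1.70, SE 0.60, not called, but called at 2.28 without CD43+ replicate 2 and at 2.45 without CD43- replicate 2), and on day 12 stood at 96, 89 and 106 in CD43+ cells against 10084, 10840 and 6702. SLC30A10, a manganese exporter, was at 459, 126 and 330 against 6, 8 and 2 on day 9 and at 1, 0 and 2 against 7, 6 and 2 on day 12. GLP1R, the glucagon-like peptide 1 receptor, was at 112, 82 and 106 in day 9 CD43+ cells with 0 in every CD43- sample, and was listed at 0 in all 6 samples of day 12. SPN itself was less different on day 12, at 4458, 7132 and 6791 against 122, 120 and 235.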

How the data were processed

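RNA sequencing of 6 day 9 samples was analysed within the table of 34 samples. Per the labels and the study, the reads were processed with bcl2fastq, bowtie2 and RSEM on hg38, and STAR 2.7 is named in the submitters' processing notes without a role. The deposited values are a normalized score, which the authors made from tag counts by correcting for GC content within samples and equalizing distributions between samples with EDASeq, as whole numbers. They are not raw counts, so no count test was used. A deposited column with the GC percent of each gene was left aside. Strand use is not stated, so overlapping and antisense genes are uncertain. The table holds 0 mitochondrial genes, 13 symbols shared by 2 identifiers and 26 symbols written as dates. Gene types came from GENCODE v29, in which 20148 identifiers were found.

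One limma 3.58.1 fit in R 4.3.3 (lmFit, eBayes with trend) covered 33 samples of 11 populations, on log2(value + 1), with Benjamini-Hochberg adjustment over 19788 genes, and was tested on simulated data. The shared spread rests on 22 residual degrees of freedom. Python 3.11.15 with pandas 2.3.3, numpy 2.4.6, scipy 1.17.1 and matplotlib 3.10.9 was used for the rest. RefSeq promoter windows were matched by symbol. Gene lists (41) were written from general knowledge, and the comparison, lists and naming rule were chosen with earlier results of these data known. The rule named the sort markers, all members of 5 lists, the most abundant and most changed members of the others, cell type markers, the 12 largest rises and 12 largest falls with non-overlapping groups, and the 3 largest changes between days in each direction. Those 12 rises and 12 falls were taken from called protein-coding genes with a mean of at least 100 in the higher population. Alternatives were pseudocounts of 0.1 and 10, no filter or a minimum of 100, median-of-ratios scaling, fits of fewer samples, robust variances, a fold change above 2, protein-coding genes only, a replicate block and leaving out each sample. Some genes that the rule named are not reported here.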

Additional observations from a re-analysis of the deposited data

Results flagged for a closer look

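The CD43 difference of day 9 was not that of the neighbouring sorts, by a test of the change itself in the limma fit. From day 6 to day 9 it changed at 1463 genes. On the log2(value + 1) scale the change was 6.50 for PTPRC, 2.10 for KLF1, 4.49 for CEBPE, 8.94 for RNASE2, 9.16 for IRF8 and 9.52 for PRTN3, and it was -7.00 for ERICH3, a gene of cilia, -6.78 for CDH11 and -6.50 for RGS5. The ERICH3 values were low, 14, 10 and 3 in CD43+ against 0, 1 and 1 in CD43- cells on day 6 and 0, 0 and 1 against 32, 36 and 20 on day 9. From day 9 to day 12 the difference changed at 1781 genes, by -3.33 for SPN, -2.66 for GFI1B, 2.63 for CEBPE, -8.23 for RELN, -7.15 for SLC30A10, -6.65 for GLP1R, 9.80 for DEFA1, 10.38 for DEFA1B and 10.54 for DEFA3. KLF1 was lower in day 9 than in day 6 CD43+ cells, at 2612, 1828 and 2074 after 3108, 2804 and 2530, while its CD43- values went from 20, 34 and 44 to 6, 8 and 2. The KLF1 change was not called without day 6 CD43- replicate 3 (1.86), day 9 CD43- replicate 3 (1.63) or day 9 CD43+ replicate 1 (1.96). From day 9 to day 12 the GFI1B change was not called without day 12 CD43+ replicate 1 (-2.34) or without day 12 CD43- replicates 2 and 3 together (-2.65), and the CEBPE change was not called without day 9 CD43- replicate 1 (2.27). RNASE2, IRF8, GLP1R and the defensins were listed at 0 in at least 1 of the populations compared, so their values are differences on that scale and neither fold changes nor bounds.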

How the results depend on the processing

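No called fold change of a named gene on day 9 changed sign under the settings tried. The balance of counts did turn: with a fold change above 2 more genes were higher than lower on day 9, and from day 9 to day 12 more were negative than positive with that fold, a pseudocount of 0.1 (798 positive, 890 negative), a minimum of 100 (611 and 684) or protein-coding genes only (705 and 780), and without day 9 CD43+ replicate 1 (850 and 859), day 9 CD43- replicate 1 (823 and 828) or day 12 CD43+ replicate 1 (802 and 807). Uncalled changes from day 9 to day 12 turned sign on leaving out a day 12 sample, PRTN3 between -2.13 and 2.97 and PTPRC between -2.27, where it was called, and 0.84. Without day 12 CD43- replicates 2 and 3 together, also tried after the data were seen, 1974 changes were called (1067 positive, 907 negative), PRTN3 (5.23) and PTPRC (3.50) among them. Counts of called genes moved by over 1.5 times under 3 settings. With a fold change above 2 the day 9 count was 8239 (4270 higher, 3969 lower), the change from day 6 to day 9 was called at 2476 genes (1053 more positive, 1423 more negative) and that from day 9 to day 12 at 3433 (1657 and 1776). With a pseudocount of 10 these were 2731 (980 higher on day 9), 869 (387 and 482) and 1090 (481 more negative), since low genes lose size on that scale. With a minimum of 100 in 3 samples, which tests fewer genes, 1129 genes were higher on day 9. Median-of-ratios scaling gave 1472 higher and 2764 lower. A replicate block within each day gave 4253 genes on day 9 (1712 higher, 2541 lower) and 1574 and 1863 for the changes. It altered no day 9 call of a named gene. The main fit was set up without pairs. Same-numbered day 9 samples deviated together only weakly across genes (r of 0.0165, 0.0782 and 0.0376), against -0.0617 to 0.0411 for differently numbered samples. These values cannot tell whether same-numbered samples came from the same culture. Leaving out day 9 samples gave 1317 to 1421 and 1651 to 1850 changes, and leaving out day 6 or day 12 samples, tried after the data were seen, 1248 to 1418 and 1609 to 1907. The day 9 calls of named genes were not tried with a fold change above 2 or with protein-coding genes only. Over the other settings these calls were lost 63 times and gained 18 times. List medians moved by at least 0.5 in 31 combinations of list and setting, mostly with another pseudocount: between pseudocounts of 10 and 0.1 the median was 1.51 to 5.08 for neutrophil granule, 2.19 to 5.62 for monocyte, 1.87 to 4.05 for mast cell and -1.97 to -4.93 for HOX genes. Depth is unknown, and differences at the top of the value range are compressed. The limma p-values measure the spread between replicates of 1 line, pooled over the 33 samples of 11 populations in the fit.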

Other observations

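Several values belong to no list above and were picked after they were seen. PDZRN4, a gene listed at 0 in all day 9 CD43+ samples, stood at 75, 392 and 52 in CD43- samples. NAP1L1, a histone chaperone, was at the highest value of 90700 in all CD43+ samples and at 17368, 15868 and 20424 in CD43- samples (log2 fold change 2.35), and ACTB was at 90700 against 48046, 29015 and 48046 without being called (1.16). The imprinted RNA H19 was at 2952, 3258 and 5476 against 90700, 90700 and 48030, and its imprinted neighbour IGF2 at 728, 1070 and 1615 against 37166, 37166 and 29000. EEF1A1 and HNRNPA1 were at 90700 in all 6 samples, so no difference between them could be measured.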
